A study of Mus musculus with 3 samples.

Results

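Long 5′ UTRs, the untranslated leaders ahead of the coding sequence (CDS) of an mRNA, were examined in ribosome profiling libraries of primary mouse cortical neurons. A 5′ UTR was taken as long when it measured at least 500 nucleotides on the longest annotated transcript of its gene and no part of it overlapped a CDS on the same strand. This rule was met by 2059 of the 20823 genes with counts for all 3 regions (leader, CDS and 3′ UTR) of their longest transcript. A further 295 genes had a 5′ UTR of that length that overlapped a CDS and were not included. The rule is stated on annotation alone and uses no read count. Whether the longest transcript was the one present in the neurons was not tested.

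In ribosome profiling, mRNA is digested with a nuclease and the pieces shielded by ribosomes are sequenced. The study's methods give cortices of CD-1 mouse embryos as the source of the neurons, and the labels state no genotype. The free-text descriptions mention psd or cytosol, input or pulldown and dep neuron, which the treatment labels do not, and whether the neurons were at rest is therefore not settled. WT neurons received no drug, Chx neurons were exposed to cycloheximide for 2 min, and Harr neurons were exposed to harringtonine for 2 min before a pulse of cycloheximide. Each library pooled 3 dishes, and all rinse and lysis buffers contained 100 μg per ml cycloheximide, so that the WT material met this drug from the rinse onwards. The 3 libraries held 30219197 reads (WT), 35722483 reads (Chx) and 9754412 reads (Harr) per their file headers, and a count of 0 allowed up to 3 reads, equal to 0.0993, 0.084 and 0.308 RPM (reads scaled to the library total). With 1 library per treatment there was no replicate check and no test, treatment and library cannot be told apart, and every interval given covers counting error only or, for a median, the spread among genes. CDS reads of 8 neuronal marker genes summed to 5600 RPM in WT, 5340 in Chx and 4070 in Harr, against 213, 195 and 78.8 for 4 astrocyte markers, at most 3.67 for 4 microglial markers and at most 6.52 for 4 oligodendrocyte markers, 2 of which had no read in any library. In bulk libraries such as these, fewer cells of a type and less RNA per cell cannot be told apart, and mRNA levels were not analysed here.

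In the scanning model, the small ribosomal subunit loads at the cap and moves along the 5′ UTR until it meets a start codon. A long leader offers room for upstream ATGs, each of which can open an upstream open reading frame (uORF) that may capture ribosomes before they reach the CDS. Harringtonine holds ribosomes that have just initiated while elongating ribosomes run off, and cycloheximide arrests elongating ribosomes where they are. Reads were counted at their 5′ end, so a ribosome on the annotated start codon was counted in the last nucleotides of the 5′ UTR, and 5′ UTR reads hold that footprint together with anything farther upstream.

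The sequences below come from the annotated long 5′ UTRs that held the most reads, and some lie in stretches with few reads. They were read from GENCODE M21 transcripts on mm10, run 5′ to 3′ on the strand of the gene, and lie in exons. The annotated start codon, in capitals, is shown with 12 nucleotides on either side for 5 of these genes, because the footprint on it falls in the 5′ UTR counts.
Scd2 start codon, chr19:44294376-44294402, plus strand: tccgacgccaagATGccggcccacata
Sox4 start codon, chr13:28953007-28953033, minus strand: caagccggggccATGgtacaacagacc
Map2 start codon, chr1:66380500-66380526, plus strand: gagatctgaaagATGgccgacgagcgg
Syt1 start codon, chr10:108691032-108691058, minus strand: cttgaaccaaaaATGgtgagtgccagt
Rab6a start codon, chr7:100608212-100608238, plus strand: tccggctccatcATGtccgcgggcgga

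The 5′ UTR of Rab6a held no upstream ATG, whereas the other 4 held between 2 (Syt1) and 8 (Scd2). Some of the complete uORFs of at most 30 nucleotides on these leaders are shown with start and stop codon in capitals. Others were left out, among them shorter ones in Zcchc18. The shortest, in Syt1, was a start codon followed at once by a stop codon. The exon that carries it held 9 reads in WT, 26 in Chx and 29 in Harr, or 0.381%, 1.12% and 0.773% of the 5′ UTR reads.
Syt1 uORF, chr10:108993887-108993892, minus strand, 239 nucleotides before the start codon: ATGTAG
Syt1 uORF, chr10:109010927-109010935, minus strand, 624 nucleotides before the start codon: ATGctcTGA
Mllt11 uORF, chr3:95228545-95228565, minus strand, 488 nucleotides before the start codon: ATGcgctggggccctttcTGA
Map2 uORF, chr1:66321811-66321825, plus strand, 498 nucleotides before the start codon: ATGgcaaaccgcTAA
Ntrk2 uORF, chr13:58808522-58808539, plus strand, 207 nucleotides before the start codon: ATGtcccagccactgTGA
Azin1 uORF, chr15:38514482-38514505, minus strand, 128 nucleotides before the start codon: ATGatagggggttccatctccTAA
Azin1 uORF, chr15:38501507-38501536, minus strand, 31 nucleotides before the start codon: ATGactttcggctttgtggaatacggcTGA
Sqle uORF, chr15:59315634-59315660, plus strand, 211 nucleotides before the start codon: ATGatttcaaaaattgatcacatcTGA
Zcchc18 uORF, chrX:136993856-136993876, plus strand, 340 nucleotides before the start codon: ATGgcgcctgtgaagaaaTGA

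The long 5′ UTRs had a median length of 665 nucleotides, with quartiles at 568 and 894.5, and the longest was the 8962-nucleotide leader of Tmbim1. In 818 genes the 5′ UTR lay in 1 exon, in 666 it was split over 2 exon segments and in 575 over 3 or more. Sequence was matched for 2048 of the 2059, which together carried 19007 upstream ATGs. At least 1 upstream ATG was present in 1965 of them, with a median of 6 per 5′ UTR, and 83 had none. Most of these reading frames (18164) stopped within the 5′ UTR, and 563 genes had at least 1 that ran past the annotated start codon in another frame. Upstream ATGs were denser than in short leaders, at 11.3 per kb in long 5′ UTRs against 6.59 per kb in the overlap-free 5′ UTRs under 500 nucleotides, and GC content was lower (median 55.6% against 60.6%). The context of upstream ATGs was close in both groups. A purine at position -3 together with a G at position 4, the strong form of the start context counted from the A of the ATG, was found at 13.9% of upstream ATGs in long 5′ UTRs and at 16.1% in shorter ones, against 36.5% and 42.0% of the annotated start codons of the same genes.

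Not every long 5′ UTR held reads. No 5′ UTR read was counted in any library for 580 of the 2059, and 480 of those genes had no CDS read either, so that only 8 of the 580 had 100 or more CDS reads. Between 1 and 9 reads were counted for 186, and 1293 held 10 or more. At least 100 reads in both the 5′ UTR and the CDS over the 3 libraries were held by 973 genes. The reads were concentrated, in that the 12 leading genes held 11.8% of all reads in long 5′ UTRs and 138 genes held the upper 50% of them. Over all members, 257057 5′ UTR reads were counted in WT, 382983 in Chx and 369881 in Harr, beside 1627826, 1978008 and 387283 CDS reads. Harr thus had nearly as many 5′ UTR as CDS reads from these genes, whereas WT and Chx had several times more CDS reads.

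Long 5′ UTRs took a larger share of a gene's reads than short ones in all 3 libraries. Of the 5′ UTR and CDS reads of members together, 13.6% in WT, 16.2% in Chx and 48.9% in Harr lay in the 5′ UTR, against 4.94%, 7.59% and 32.8% for 5′ UTRs under 500 nucleotides. The share climbed with length up to 25.6%, 26.3% and 61.5% in the 56 genes with 2000 or more nucleotides. Per nucleotide the order was the other way round. The density of reads in long 5′ UTRs relative to the CDS was 0.315 in WT (95% counting interval 0.313 to 0.316), 0.386 in Chx (0.385 to 0.387) and 1.90 in Harr (1.89 to 1.91). Under 500 nucleotides it was 0.466, 0.736 and 4.38, and under 50 nucleotides 1.14, 1.98 and 11.8. These ratios of sums are weighted towards strongly read genes. As a median over genes with at least 10 5′ UTR and 100 CDS reads in all, the relative density was 0.497 in WT for 1166 long 5′ UTRs (interval of the median 0.461 to 0.543) and 0.402 for shorter ones (0.390 to 0.415), so that the order of both groups in WT depended on the summary. In Chx (0.597 against 0.749) and Harr (2.99 against 4.42) the median was lower for long 5′ UTRs, as the ratio of sums was.

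**Figure D1:**
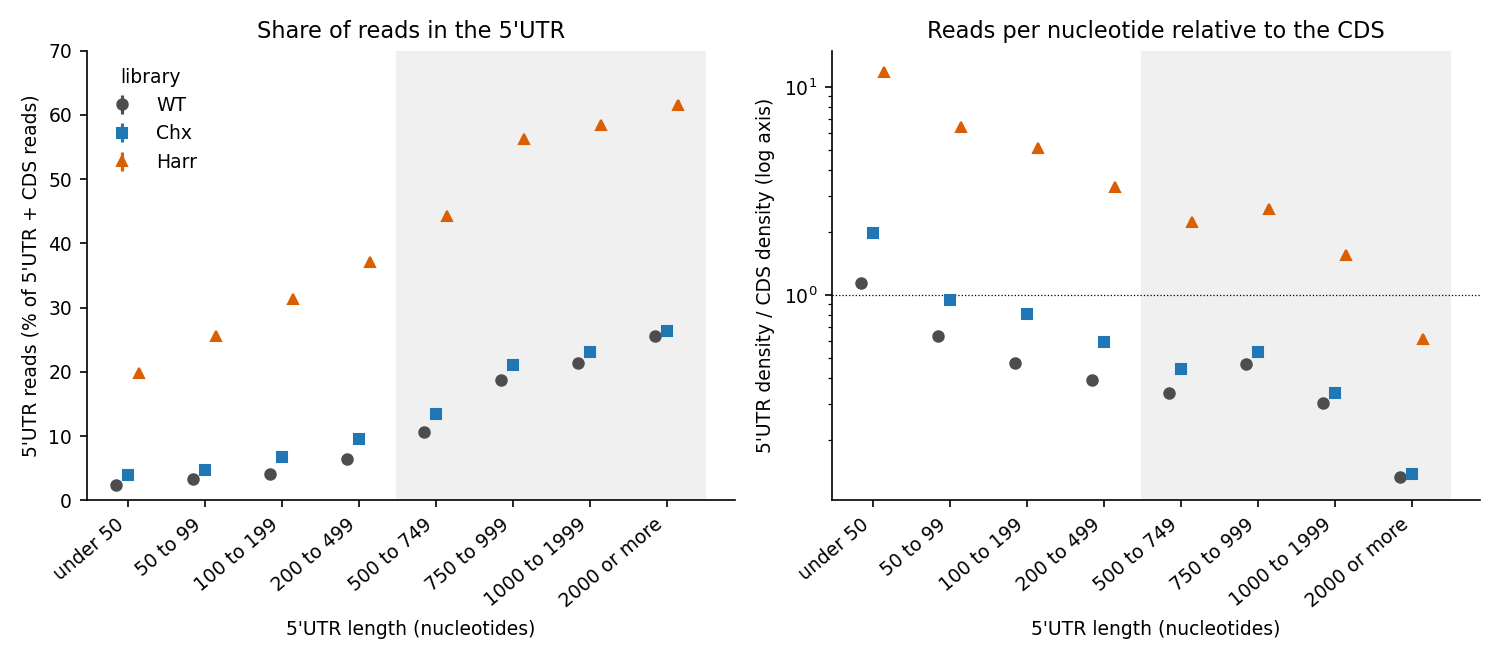
Share of reads in the 5′ UTR (left, percent of 5′ UTR plus CDS reads) and read density of the 5′ UTR relative to the CDS (right, log axis) by 5′ UTR length for overlap-free genes, with long 5′ UTRs shaded and 95% counting intervals mostly smaller than the symbols. The share climbed with length in each library, to 61.5% in Harr at 2000 or more nucleotides, while the relative density fell from 11.8 in Harr under 50 nucleotides to 0.617 at 2000 or more.

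Values on either side of the threshold were close in WT and Chx and lower above it in Harr. The 112 genes within 10 nucleotides below it had 5′ UTR shares of 6.53% in WT, 8.84% in Chx and 36.7% in Harr, and the 101 genes within the first 10 nucleotides above it had 6.39%, 8.72% and 31.1%.

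The 3′ UTR, where few ribosomes are expected by textbook knowledge, gave a background from the same genes. In members the 5′ UTR was read 19.9 times as densely as the 3′ UTR in WT, 32.8 times in Chx and 36.8 times in Harr. The 3′ UTR was also denser against the CDS in Harr, at 0.0517 of the CDS density compared with 0.0118 in Chx. A higher ratio to the CDS in Harr was thus seen for both UTRs, in a library with far fewer CDS reads, and the part of the CDS reads in it was not tested. At 2000 or more nucleotides the 5′ UTR was read only 2.68 times as densely as the 3′ UTR in WT and 6.87 times in Harr.

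The 12 long 5′ UTRs with the most reads belonged to lipid enzymes, synaptic and dendritic proteins, receptors and regulators. Scd2, which encodes a stearoyl-CoA desaturase of monounsaturated fatty acid synthesis, led with 4009 5′ UTR reads in WT, 6267 in Chx and 7055 in Harr on 714 nucleotides. Its 5′ UTR density relative to the CDS was 0.278 in WT, 0.417 in Chx and 5.62 in Harr. Nearly all of these reads lay in the part nearer the start codon, where the last 312 nucleotides held 98.8%, 98.9% and 99.2% of them. Sqle, which encodes squalene epoxidase of sterol synthesis, held 1754, 2578 and 3043 reads, with relative densities of 0.829, 0.849 and 6.22. For both lipid enzymes Harr stood far above the other libraries. Chx lay above WT for Scd2 (log2 odds ratio 0.59) and near it for Sqle (0.03).

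Shc3 and Azin1 were read more heavily in the leader than in the CDS in every library. Shc3, an adaptor of receptor tyrosine kinases in neurons, held 3969 5′ UTR reads against 1027 CDS reads in WT, 4757 against 1458 in Chx and 3589 against 313 in Harr on a leader of 2043 nucleotides in a single exon. Azin1, which encodes the antizyme inhibitor of polyamine control, held 3190 against 760, 2664 against 1091 and 2408 against 100. Its relative density of 9.58 in WT was the highest among the 12 genes, and Chx gave 5.57 and Harr 55.0. Ppp2r5b, a regulatory subunit of protein phosphatase 2A that was not among the 12, showed the same order of regions, with 1484 5′ UTR reads against 1266 CDS reads in WT, 2851 against 1820 in Chx and 2210 against 148 in Harr. Among members with at least 100 reads in both regions together, 85 of 1110 (7.66%) had more 5′ UTR than CDS reads in WT, 112 of 1160 (9.66%) in Chx and 533 of 935 (57.0%) in Harr. Over all genes these shares were 1.72%, 2.35% and 32.6%. A longer leader has more room for reads, and the part of length in this gap was not tested.

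Synaptic and dendritic genes among the 12 differed in how the libraries were ordered. Syt1, the calcium sensor of synaptic vesicle release, held 2362 5′ UTR reads in WT, 2324 in Chx and 3752 in Harr, at relative densities of 0.342, 0.256 and 3.52, so that WT stood above Chx. Map2, the microtubule protein of dendrites, held 1529, 3134 and 3969 reads at 0.211, 0.393 and 1.30, and there Chx stood above WT. Ntrk2, the BDNF receptor TrkB, held 2308, 3506 and 3316 reads at 0.731, 0.775 and 4.02, and its WT and Chx values were close.

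The remaining leaders of this group covered a wide range of relative density. Sox4, a transcription factor of neuronal differentiation, held 2657, 3556 and 3566 5′ UTR reads at 0.627, 0.666 and 3.30 of the CDS density. Rab6a, a small GTPase of the Golgi, held 1164, 3226 and 3215 at 0.177, 0.41 and 3.57, on a leader with no upstream ATG. Zcchc18 held 1389, 2768 and 4189 at 0.191, 0.321 and 4.4. Mllt11, a small protein of neurons, was the lowest in WT and Chx with 2583 and 2681 reads at 0.0582 and 0.0599, and had 6271 reads at 2.38 in Harr.

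**Figure D2:**
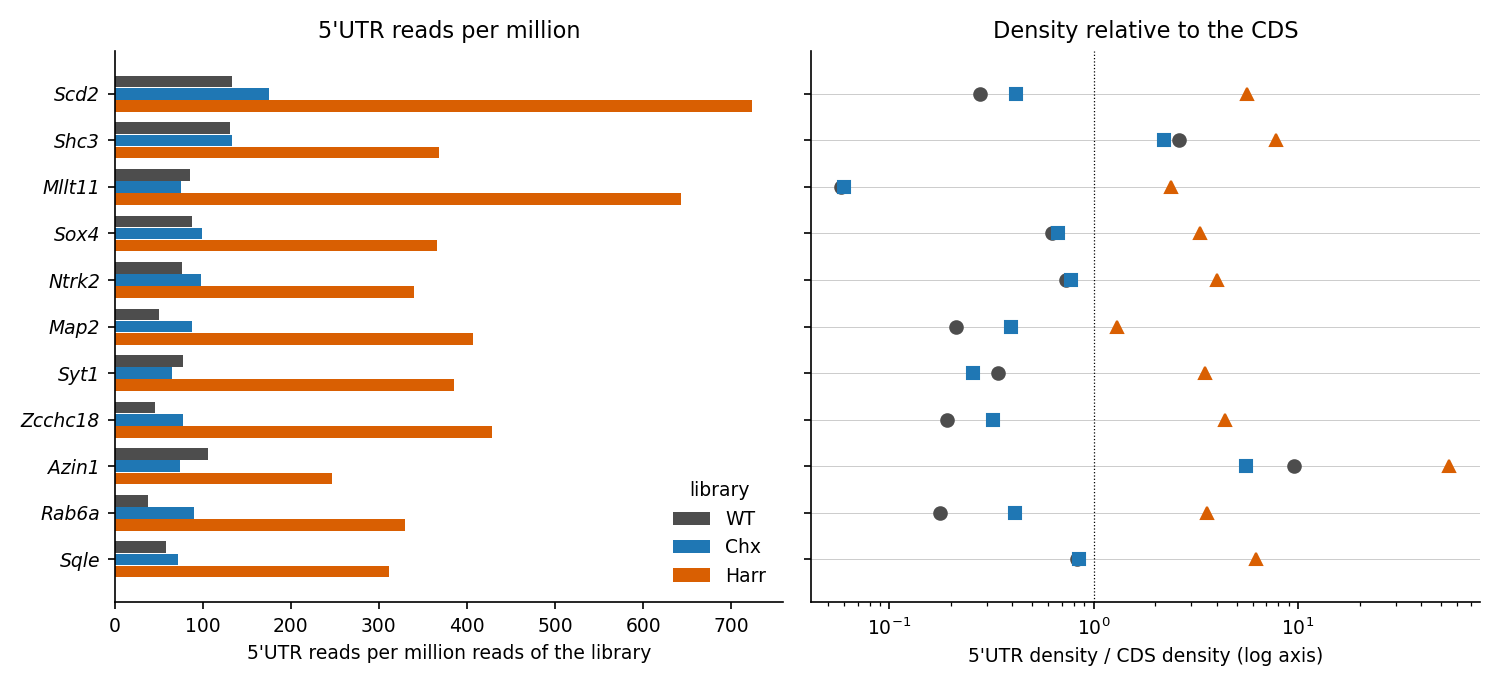
5′ UTR level in RPM (left) and 5′ UTR density relative to the CDS (right, log axis) for 11 of the 12 long 5′ UTRs with the most reads, 1 library per treatment. Harr was highest for all 11, and Azin1 (9.58, 5.57 and 55.0) and Shc3 (2.62, 2.21 and 7.78) lay above 1 in every library.

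At the ends of the range in WT, relative density differed by several orders of magnitude. Among members with at least 100 reads in both regions over the 3 libraries, the 5 highest were Kmt2e (10.2 in WT, 12.4 in Chx and 27.5 in Harr), Extl3 (9.84, 7.69 and 24.5), Azin1, Cdh22 (7.45, 7.54 and 35.5) and Sh3yl1 (6.36, 5.77 and 14). Extl3 is a glycosyltransferase of heparan sulfate synthesis, Kmt2e belongs to the SET domain proteins and Cdh22 to the cadherins. All stayed above 1 in each library. The 5 lowest were Tmsb4x (0.000697, 0.000733 and 0.00163), Trappc5 (0.00264, 0.00675 and 0.0763), Sf3b5 and Hist1h1d (both 0.0044 in WT) and Hnrnpl (0.00547, 0.0231 and 0.0887). Tmsb4x, which encodes the actin-sequestering thymosin beta-4, had 85, 84 and 85 reads on its 502-nucleotide leader beside 37173, 34943 and 15892 CDS reads, so that its relative density stayed near 0 even in Harr. Whether these genes were read on mRNAs with the annotated long leader was not tested. The 4 long leaders annotated for cytosolic ribosomal proteins held few reads. Rps25 held 7, 26 and 21 5′ UTR reads beside 3631, 3288 and 283 CDS reads, and Rpl18, with 2375 nucleotides, held 9, 12 and 9 beside 1544, 1930 and 96. Rpl35 had relative densities of 0.00644, 0.0162 and 0.0487. Rpl17 had higher relative densities of 0.161, 0.233 and 0.575 with 34, 35 and 19 5′ UTR reads, since its CDS was also read little (185, 132 and 29 reads).

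Among members with at least 100 reads in both regions, the 5 longest leaders belonged to Lrrc28 (3936 nucleotides), Rap2b (3419), Sf3b5 (3280), 2410002F23Rik (2561) and Pcdh17 (2532). Pcdh17, a protocadherin, was the most read, with 1615, 2000 and 1939 5′ UTR reads and relative densities of 0.559, 0.553 and 1.36. The other 4 were read less densely than the CDS in every library, from 0.0044 for Sf3b5 in WT to 0.603 for 2410002F23Rik in Harr.

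Reads were not spread evenly along long 5′ UTRs. In 928 members with 2 or more exon segments and at least 30 nucleotides of 5′ UTR in the start exon, the segments upstream of that exon made up 60.2% of the nucleotides and held 44.1% of the 5′ UTR reads in WT, 47.9% in Chx and 49% in Harr. Upstream segments cannot hold the footprint of the annotated start codon, and yet they were read at 0.326 of the CDS density in WT (0.323 to 0.329), 0.402 in Chx (0.399 to 0.406) and 1.91 in Harr (1.89 to 1.93). The start exon part was denser, at 0.626, 0.66 and 3.0. The 3′ UTRs of the same genes were at 0.0168, 0.0131 and 0.057 of the CDS density, well under the upstream segments. In 46 of the 462 members with at least 10 reads in the start exon part, no read at all was counted in the first annotated exon.

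Where another annotated transcript shared the start codon but began closer to it, the difference of both counts gave the reads in a window at a known distance. Within 20 nucleotides of the start codon, 79 members held 1.85 times the CDS density in WT, 3.0 times in Chx and 25.3 times in Harr. Beyond 300 nucleotides, 117 members held 0.193, 0.234 and 1.68 times. These are ratios of sums, and the medians over genes in Harr were 14.9 within 20 nucleotides and 0.972 beyond 300. The windows between gave no steady decline, with 0.0742, 0.237 and 2.9 times from 61 to 120 nucleotides (24 members) and 0.492, 0.592 and 3.23 times above 120 and up to 300 (30 members). Without Apaf1 the values from 61 to 120 nucleotides were 0.0529, 0.138 and 1.91, and the medians over genes were 0, 0 and 0.24. Above 120 and up to 300 these medians were 0.0738, 0.29 and 1.37. Windows between 21 and 60 nucleotides were available in 24 members only, and Pcbp2 supplied most of their reads in Harr, since the value was 9.97 with it and 1.57 without it.

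Some leaders were read mostly next to the start codon. In Mllt11 the last 6 nucleotides before the start codon held 2061 reads in WT, 1674 in Chx and 4012 in Harr, which was 79.8%, 62.4% and 64.0% of its 5′ UTR reads. In Psmd13, a proteasome subunit, the last 8 of 504 nucleotides held 140, 160 and 422 reads, or 68.6%, 65.3% and 74.0%. In Nrep the last 64 of 1412 nucleotides held 90.0%, 92.3% and 98.9%. Cystm1 went furthest, with 185, 217 and 434 reads, all within 19 nucleotides of the start codon and none in the 3 exons upstream.

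In other genes most of the reads lay away from the start codon. The middle exon of the Azin1 leader, 137 nucleotides long, held 1892 reads in WT, 966 in Chx and 579 in Harr, whereas the 95 nucleotides at the start codon held 75, 101 and 110. The share of that middle exon among 5′ UTR reads was 59.3%, 36.3% and 24.0%, while the share of the first exon went from 38.3% in WT to 71.4% in Harr. The first exon of Syt1 held 84.4% of its 5′ UTR reads in WT, 61.9% in Chx and 65.3% in Harr. That of Map2 held 49.8%, 33.4% and 22.1%, while the 65-nucleotide exon after it held 14.1%, 39.5% and 39.4%. Homer1, a scaffold of the postsynaptic density, had 504, 1144 and 675 5′ UTR reads, and 58.5%, 74.9% and 64.9% of them lay at least 500 nucleotides from the start codon.

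Atf4, the transcription factor of the integrated stress response and a textbook case of control by uORFs, was ordered differently near its start codon. The 92 nucleotides of 5′ UTR next to the start codon held 1301 reads in WT, 2181 in Chx and 368 in Harr, and the exon before it held 600, 1140 and 849. The part at the start codon thus took 68.4%, 65.7% and 30.2% of the 5′ UTR reads, so that in Harr the balance tipped to the upstream exon. Scaled to length and library total (RPKM), this part was lower in Harr (410) than in WT (468) or Chx (664), although the upstream exon was higher (173 against 39.6 and 63.6). That order holds for scaling by the library total. Set against the CDS reads of Atf4 (3578, 4323 and 656), the part at the start codon was highest in Harr. Eif5, an initiation factor that is itself known for uORFs, and Kmt2e had the same order of shares. The exon at the start codon of Eif5 held 86.5%, 78.5% and 57.1% of its 5′ UTR reads, and that of Kmt2e 68.6%, 52.1% and 23.8%.

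**Figure D3:**
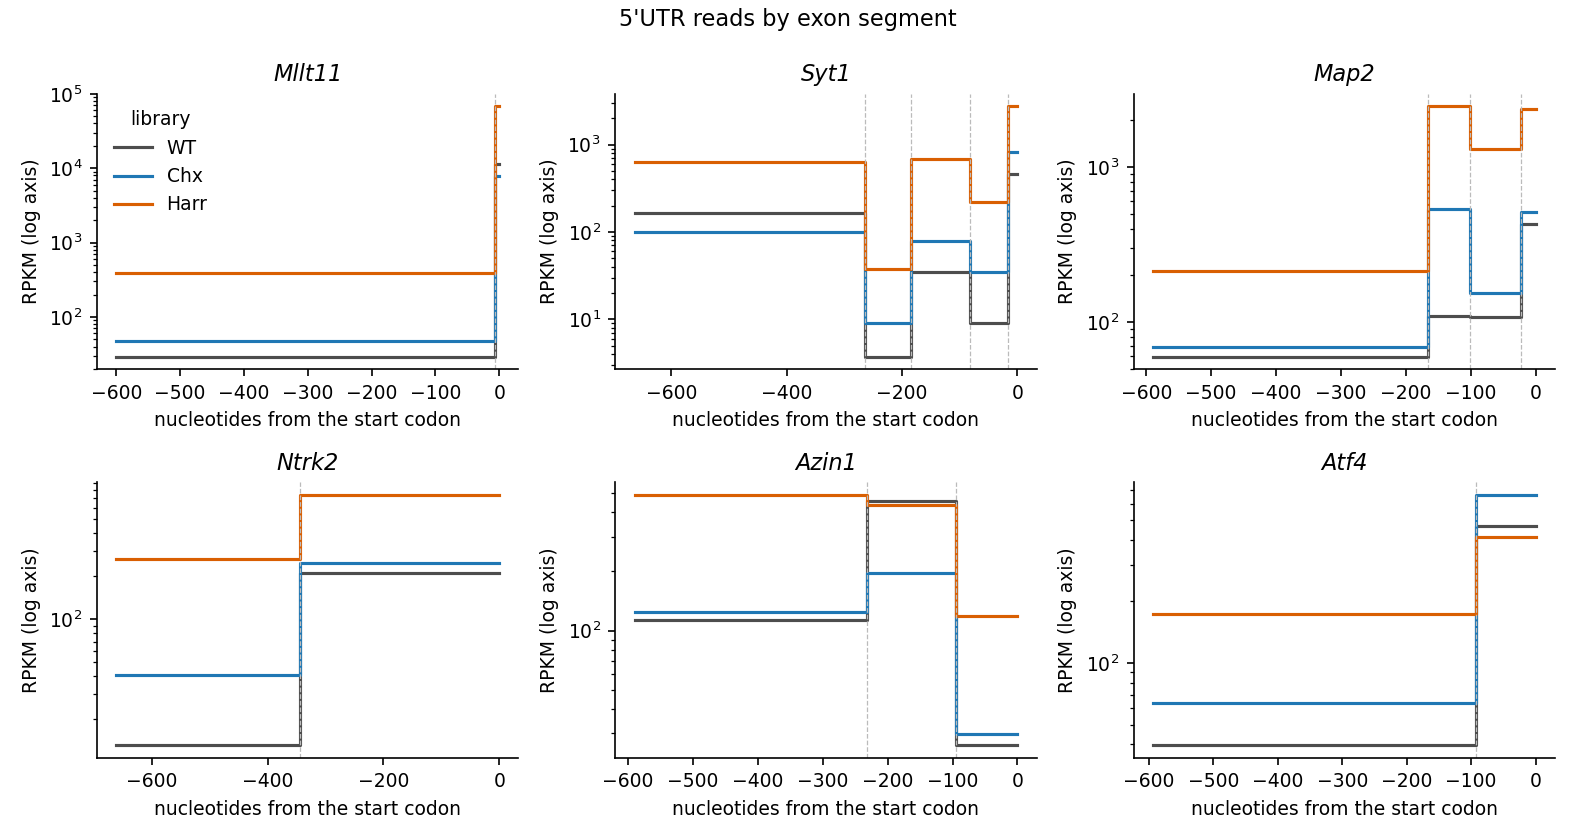
RPKM (log axis) of each 5′ UTR exon segment against its distance from the start codon for 6 genes, with dashed lines at exon borders and 1 library per treatment. Mllt11 peaks in its last 6 nucleotides in all libraries, Azin1 in its middle exon in WT (59.3% of reads), and in Atf4 the 92 nucleotides at the start codon are lower in Harr (410) than in Chx (664).

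In WT the density of reads climbed with the number of upstream ATGs up to 4 to 6. Among 1163 members with sequence and at least 10 5′ UTR and 100 CDS reads, the median relative density in WT was 0.193 in the 65 genes with no upstream ATG (interval of the median 0.132 to 0.290), 0.365 in 106 genes with 1, 0.455 in 271 with 2 to 3 and 0.703 in 342 with 4 to 6 (0.602 to 0.778). It was 0.700 with 7 to 10 and fell back to 0.266 in the 141 genes with more than 10, whose median leader length was 1212 nucleotides. This fall was not seen among leaders under 750 nucleotides, with 0.745 for 4 to 6 and 0.716 (0.161 to 2.1) in the 25 genes above 10, nor at 60% GC or more, with 0.771 and 0.958 (0.0741 to 2.69, 10 genes), and these intervals are wide. Under 60% GC the values were 0.644 and 0.263. There the climb was not steady, with 0.335 for no upstream ATG (16 genes), 0.449 for 1 (22 genes) and 0.297 for 2 to 3 (64 genes). In Chx the values went from 0.328 with no upstream ATG to 0.787 with 4 to 6 and back to 0.334 above 10. In Harr they went from 2.35 to 3.67 and then to 1.79, below the class with none. The class with 4 to 6 stood 3.63 times above the class with none in WT and 1.56 times in Harr. Over all classes the relation was weak, with a Spearman's rho between upstream ATGs and relative density of 0.12 in WT, 0.04 in Chx and -0.06 in Harr across the 1163 genes, which are not independent replicates. CDS levels moved with the classes too, from a median of 21.7 RPKM in WT with no upstream ATG to 8.40 with 4 to 6, and GC content from 67% to 61%. Their part in the gradient was not tested, but in leaders with at least 60% GC the WT ratio was 4.83 and in those under 60% it was 1.92.

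Exon by exon, the same pattern was seen without the footprint of the annotated start codon. Upstream exon segments of at least 30 and under 200 nucleotides were compared by the ATGs they could place under a ribosome, taking a footprint to begin 12 nucleotides before the codon it reads. The 158 segments with no ATG had a median density of 0.101 of the CDS in WT (0.0737 to 0.151), 0.13 in Chx and 1.17 in Harr. The 347 with at least 1 ATG had 0.559 (0.445 to 0.706), 0.759 and 3.12. Without the upper limit on length the gap was smaller, with 0.113, 0.172 and 1.26 in 220 segments with no ATG and 0.37, 0.49 and 2.11 in 851 segments with at least 1. The ratio of both classes thus went from 5.53 to 3.26 in WT and from 5.82 to 2.85 in Chx. In WT the median climbed with the number of ATGs, from 0.384 for 1 to 0.746 for 2 and 0.986 for 3 or more, and in Chx from 0.522 to 0.861 and 0.922. In Harr the classes were not in this order, at 3.2, 2.3 and 3.67. The triplet GTA, which holds the same letters but starts no reading frame, separated the same segments much less, at 0.37 with and 0.27 without it in WT, 0.409 and 0.461 in Chx and 2.34 and 2.23 in Harr. Segments with 1 ATG had a median of 0.37 in WT when the ATG had both the purine and the G of the strong context (27 segments) and 0.463 when it had neither (57 segments). In Harr these values were 5.56 (2.44 to 10.3) and 3.19 (1.4 to 4.56), the 86 segments with one of both features had 2.47 (0.809 to 4.17), and all 3 intervals overlapped, so that no order by context was seen.

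**Figure D4:**
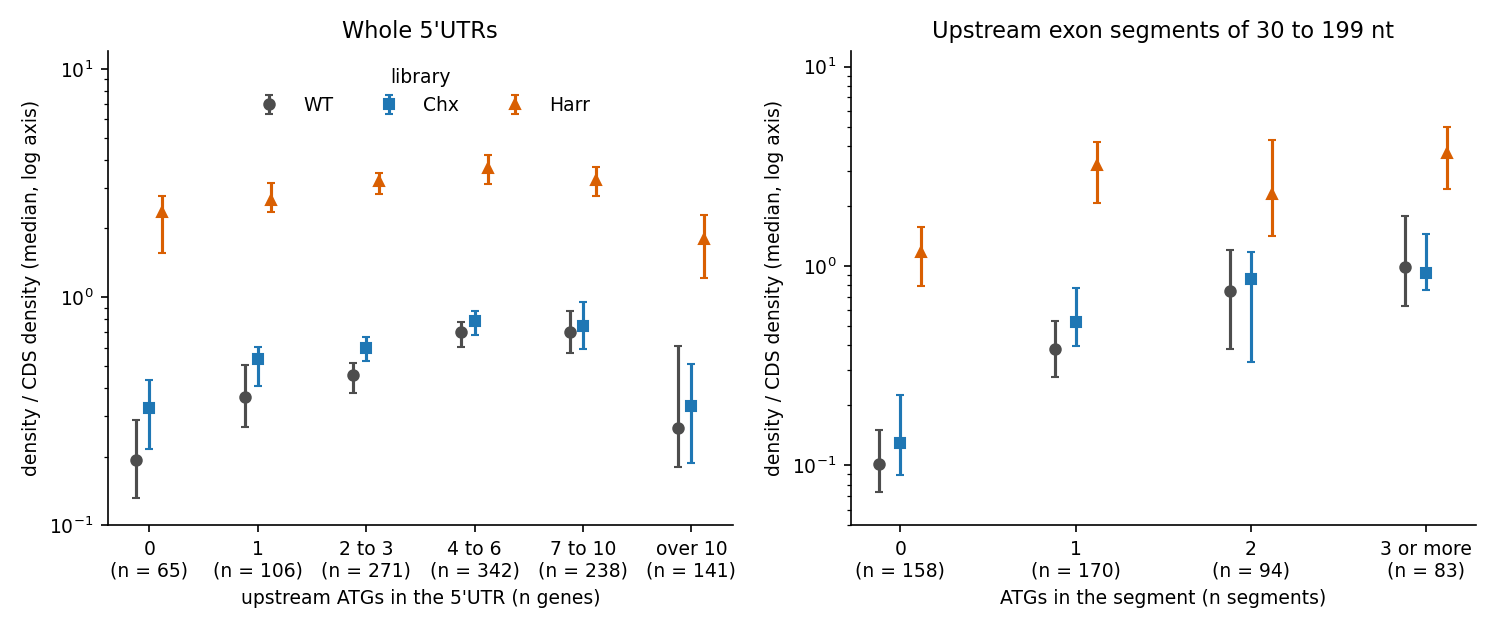
Median read density relative to the CDS (log axis) by the number of upstream ATGs in the whole 5′ UTR (left) and by the number of ATGs in single upstream exon segments of at least 30 and under 200 nucleotides (right), with distribution-free 95% intervals of the median. In WT the segments climb from 0.101 with no ATG to 0.986 with 3 or more, and whole leaders from 0.193 to 0.703 before falling back to 0.266 above 10 ATGs, a fall not seen among leaders under 750 nucleotides alone.

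The balance of leader and CDS reads was compared between libraries by a log2 odds ratio, with 0.5 added to each count. A gene entered a median with at least 10 reads in each of both regions over the pair. It was called where the log2 odds ratio was 1 or more in size and its counting interval left out 0. CDS length differs between genes and families, and its part in the odds ratios was not tested. The highest and lowest genes of a pair are named among members with at least 100 reads in each region over the 2 libraries of that pair. The 3 pairs share libraries and are not independent. Since they rest on 1 library each, a call compares 2 libraries and not 2 conditions.

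Harr against Chx, the pair of libraries that differ in harringtonine, gave a median log2 odds ratio of 2.28 over 1256 members (interval 2.23 to 2.35). It was 2.52 for 8735 genes with 5′ UTRs under 500 nucleotides. Of 1275 members tested, 1148 (90.0%) were called higher in Harr and 0 lower, beside 88.8% higher and 0.12% lower over all genes tested, so that the share of members was that of genes in general. The 3′ UTR:CDS odds ratio of the same pair had a median of 3.70 over the 524 members with enough 3′ UTR reads. The 5 highest values were those of Cystm1 (5.41), Bcl2 (5.40), Mllt11 (5.31), Nrep (5.24) and Meis1 (5.16). For Bcl2, the inhibitor of apoptosis, the value rested on 5 CDS reads in Harr beside 164 in WT and 188 in Chx, with 145, 163 and 201 5′ UTR reads, and Meis1, a homeobox factor, likewise had 7 CDS reads in Harr. The 5 lowest were Usp27x (-0.80), Nhsl1 (0.10), Triobp (0.13), Sptb (0.31) and Zcchc14 (0.39). Usp27x, a deubiquitinase, was the only one of these below 0, with 254 5′ UTR reads in WT, 350 in Chx and 69 in Harr beside 369, 485 and 167 CDS reads.

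Harr against WT gave the same order at a larger size. The median over 1239 members was 2.60 (2.52 to 2.67), against 3.38 for 8361 genes with shorter 5′ UTRs, and within members it went from 2.68 under 750 nucleotides to 2.31 at 1000 or more (2.07 to 2.60). Of 1254 members tested, 1153 (91.9%) were called higher and 0 lower, beside 93.7% and 0.135% over all genes. Nrep (6.05), Chchd10 (5.80), Raly (5.78), Cystm1 (5.65) and Cdkn1b (5.62) were highest. Cdkn1b, the cell cycle inhibitor p27 with a leader long studied for its control, had 220 5′ UTR reads in WT, 897 in Chx and 1220 in Harr beside 4857, 6457 and 545 CDS reads. In Raly, an RNA-binding protein with 82, 262 and 602 5′ UTR reads, 25.6% of the 25-nucleotide words of the leader also occur in transcripts of other genes, so its reads are uncertain. Usp27x (-0.73), Slc45a4 (0.19), Boc (0.25), Dmtf1 (0.30) and Armcx4 (0.42) were lowest. The 3′ UTR:CDS odds ratio of this pair had a median of 2.54 over 589 members, close to that of the 5′ UTR.

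Chx against WT, the pair that differs in the 2 min exposure to cycloheximide, gave smaller values, and here the share of calls in long leaders lay furthest from that of all genes. The median was 0.29 over 1253 members (0.25 to 0.32) and 0.76 over 8443 genes with 5′ UTRs under 500 nucleotides. It fell with length within members, from 0.34 (0.30 to 0.40) under 750 nucleotides to 0.25 (0.10 to 0.31) from 750 to under 1000 and 0.08 (-0.02 to 0.18) at 1000 or more. Of 1262 members, 167 (13.2%) were called higher in Chx and 14 (1.11%) lower, beside 30.2% and 1.09% over all genes tested, so that fewer members were called higher and about the same share lower. The values differed by position. In members with several exons the start exon part had a median of 0.00 (-0.07 to 0.08) and the segments upstream of it 0.44 (0.36 to 0.52). In 5′ UTRs of 200 to under 500 nucleotides both were higher, at 0.36 and 0.75. The 3′ UTR:CDS odds ratio of this pair had a median of -0.84 over 463 members, opposite in sign to the median of 0.29 for the 5′ UTR.

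Single genes in this pair moved in both directions. The highest were Micu3 (2.70), Golga5 (2.34), Timm10b (2.15), Ube2q2 (2.12) and Fth1 (2.11). Micu3, a regulator of mitochondrial calcium uptake, had 14 5′ UTR reads in WT, 105 in Chx and 149 in Harr beside 769, 861 and 186 CDS reads. Its relative density was 0.0483, 0.323 and 2.12. Fth1, the ferritin heavy chain, had 35, 161 and 149 5′ UTR reads at 0.0119, 0.0519 and 0.517. In both, Chx stood above WT and Harr above Chx once scaled to the CDS. The lowest were Rnf167 (-1.61), Gpr61 (-1.48), Mbtps1 (-1.14), Dido1 (-1.03) and Zfp672 (-1.0). Rnf167, a ubiquitin ligase, had 278, 211 and 346 5′ UTR reads beside 69, 161 and 36 CDS reads, so that its lower ratio in Chx came from more CDS as well as fewer 5′ UTR reads.

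**Figure D5:**
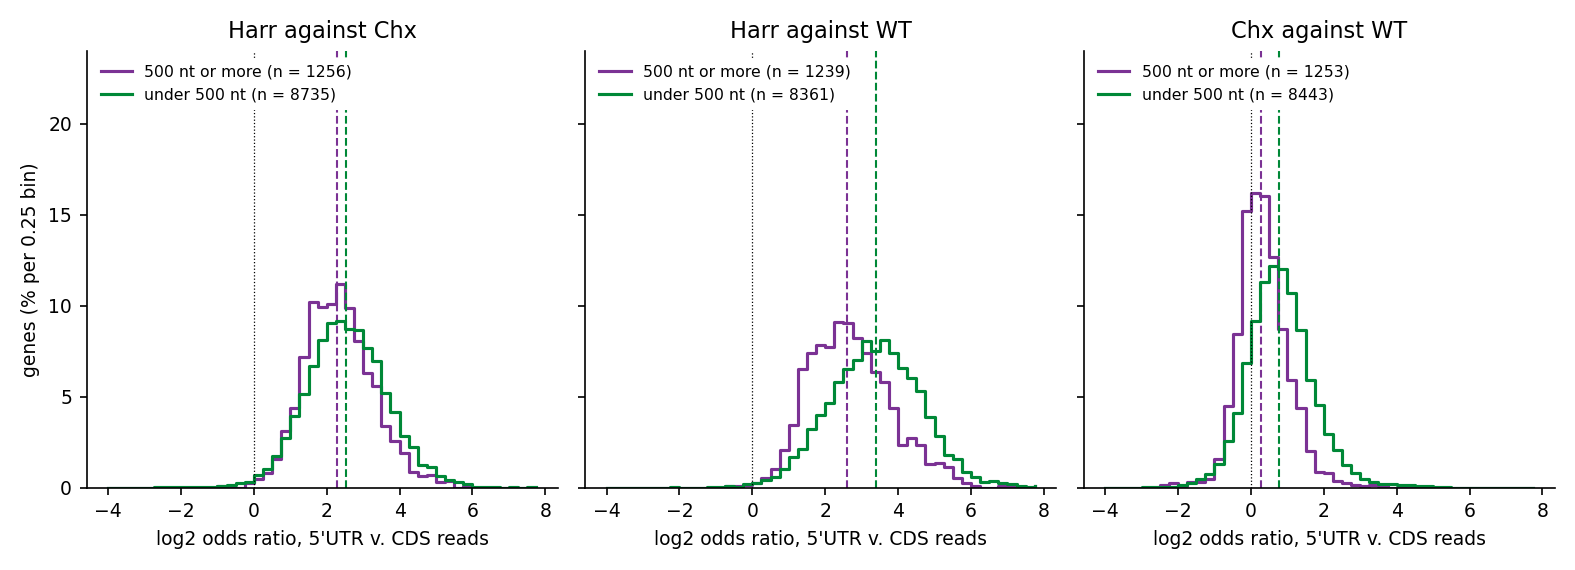
Distribution of the log2 odds ratio between libraries (5′ UTR:CDS) for long 5′ UTRs and for overlap-free 5′ UTRs under 500 nucleotides in the 3 pairs of libraries, in percent of genes per bin of 0.25, with dashed lines at the medians. The medians of both groups are 2.28 and 2.52 for Harr against Chx, 2.60 and 3.38 for Harr against WT, and 0.29 and 0.76 for Chx against WT.

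The number of upstream ATGs was also related to this last pair. The median log2 odds ratio of Chx against WT was 0.69 (0.46 to 0.89) in members with no upstream ATG, 0.46 with 1, 0.40 with 2 to 3, 0.27 with 4 to 6, 0.06 with 7 to 10 and 0.04 (-0.12 to 0.18) with more than 10. Single genes spread widely around these medians, since Cdkn1b and Kcna6, both with no upstream ATG, gave 1.61 and 0.25, and Egr1, with 11, gave 1.34. Across the 1163 members Spearman's rho with the number of upstream ATGs was -0.25, and with GC content 0.27, and genes are not independent replicates. Leaders of 200 to under 500 nucleotides showed the same order, from 0.93 with no upstream ATG to 0.22 with 7 to 10.

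The share of genes with a long 5′ UTR differed between gene families. Members made up 10.6% of all overlap-free genes. Of 38 transcription factors of cortical neurons 14 (36.8%) had a long 5′ UTR, of 48 semaphorins, plexins, ephrins and Eph receptors 14 (29.2%), of 87 potassium channels 23 (26.4%) and of 134 homeobox, Sox, Fox and Pou factors 29 (21.6%). Genes of the basic machinery of the cell had few, with 4 of 80 cytosolic ribosomal proteins (5.00%), 1 of 73 mitochondrial ribosomal proteins (1.37%), 2 of 47 proteasome subunits (4.26%), 2 of 50 translation initiation factors (4.00%) and 6 of 89 genes of oxidative phosphorylation, assembly factors among them (6.74%). These are counts of annotation, given without a test.

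The 14 transcription factors of cortical neurons were all read in their leaders. All 14 were called higher in Harr than in Chx, with a median log2 odds ratio of 1.93, 13 of 14 were called higher in Harr than in WT, and 2 of 14 in Chx than in WT. Over all genes tested these calls made up 88.8%, 93.7% and 30.2%, so that the first 2 counts lay near the share of genes in general. Pou3f3, a POU factor of cortical development, held 1837 5′ UTR reads in WT, 1747 in Chx and 1456 in Harr on 1378 nucleotides, at relative densities of 1.05, 0.698 and 2.0. The immediate early gene Jun had 343, 1184 and 1044 reads at 0.178, 0.465 and 1.5, and Egr1 75, 355 and 352 at 0.0737, 0.188 and 0.586. In these last 2 genes Chx was well above WT, with log2 odds ratios of 1.39 for Jun and 1.34 for Egr1. Fezf2 and Lhx2, further factors of cortical identity, held 181, 248 and 297 reads and 139, 336 and 291 reads. Tcf4 had the lowest relative density of the 14 in every library, at 0.0598, 0.0695 and 0.234.

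Of 13 genes used in textbooks to illustrate uORFs, 5 had a long 5′ UTR, and all 5 were called higher in Harr than in Chx and than in WT, at medians of 1.65 and 1.80 (88.8% and 93.7% of all genes tested were). Besides Atf4, Azin1 and Eif5 they were Ppp1r15a and Ppp1r15b, the regulatory subunits that direct a phosphatase to eIF2. Ppp1r15a held 611, 952 and 867 5′ UTR reads beside 584, 684 and 285 CDS reads, at relative densities of 2.7, 3.6 and 7.86, and Ppp1r15b 441, 665 and 421 at 2.33, 2.79 and 8.79. Both phosphatase subunits were thus read more densely in the leader than in the CDS in every library. The log2 odds ratio of Harr against Chx was 1.27 for Atf4, 1.13 for Ppp1r15a and 1.65 for Ppp1r15b, under the members' median of 2.28, and 3.30 for Azin1.

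Of 25 genes known for long or structured leaders, 11 were members, and all 9 of those tested were called higher in Harr than in Chx (median 2.25), as were 88.8% of all genes tested. Bdnf, the neurotrophin that TrkB binds, held 703, 1196 and 1365 5′ UTR reads at 0.286, 0.324 and 1.54. The potassium channel Kcna4 held 785, 846 and 639 on 1212 nucleotides with 18 upstream ATGs at 1.54, 1.23 and 3.94, and Kcna1 212, 232 and 202 at 0.791, 0.562 and 3.08. In both channels WT stood above Chx. Apaf1, the core of the apoptosome, held 118, 217 and 240 at 1.88, 2.79 and 13.2. Xiap, an inhibitor of caspases whose leader carries 21 upstream ATGs at 31.4% GC, had few reads with 11, 28 and 27. Igf2 and Tgfb1 had at most 4 5′ UTR reads in any library, too few for a ratio.

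Of 22 genes with uORFs named by the study, Apaf1, Rspo3 and Cmc4 were members. Rspo3, an agonist of Wnt signaling, held 70, 136 and 54 5′ UTR reads at 1.24, 1.71 and 4.4. For Cmc4, with 42, 86 and 123, 94.8% of the words of the leader occur in transcripts of another gene, so its reads cannot be assigned.

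Axon guidance and adhesion genes are given by the most-read members of each family. All 14 semaphorins, plexins, ephrins and Eph receptors were called higher in Harr than in Chx (median 2.11), and 1 of 14 in Chx than in WT, beside 88.8% and 30.2% of all genes tested. Sema6a, a semaphorin, held 784, 1127 and 1003 reads at 2.08, 2.32 and 9.05 of the CDS density. Efnb2, an ephrin, held 593, 1298 and 994 reads at 0.527, 0.781 and 4.18, Plxna2 590, 766 and 853 at 1.57, 1.37 and 5.42, and Sema4g 575, 524 and 404 at 3.47, 2.41 and 8.96. Among 15 cadherins and protocadherins, Pcdh10 held 1595, 1255 and 1109 at 1.17, 0.735 and 2.13, Pcdh7 802, 1071 and 850 at 0.569, 0.569 and 1.02, and Cdh8 660, 737 and 573 at 1.59, 1.78 and 5.19. The log2 odds ratio of Harr against Chx was 0.84 for Pcdh7, 1.30 for Pcdh17, 1.54 for Pcdh10 and 1.55 for Cdh8, all under the members' median. Their CDSs measured 3768, 3474, 3123 and 2400 nucleotides, and the part of CDS length in these values was not tested.

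Receptors and channels of neurons followed. Grin2b, a subunit of the NMDA receptor, held 1089, 1336 and 809 5′ UTR reads at 1.87, 1.76 and 3.71, and its log2 odds ratios of 1.07 for Harr against Chx and 0.99 for Harr against WT were among the smaller ones. Grik1, a kainate receptor subunit, held 535, 344 and 313 at 4.0, 2.28 and 9.18. Of 7 such receptor genes tested, 6 were called higher in Harr than in Chx. All 17 potassium channels tested were called higher in this pair (median 2.44) and of 16 none was called higher and 1 lower in Chx than in WT. Over all genes tested 88.8% were called higher in Harr than in Chx, and 30.2% higher and 1.09% lower in Chx than in WT. Kcnj3 held 698, 719 and 617 reads at relative densities of 0.625, 0.519 and 1.8. Kcnd2 held 374, 556 and 731 at 0.568, 0.558 and 6.06, and Kcna6 334, 533 and 819 at 0.563, 0.669 and 6.89. In all 3 channels Harr was highest in relative density. Cacng2, an auxiliary subunit of AMPA receptors, held 468, 472 and 307 at 1.79, 1.58 and 7.29.

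Members from oxidative phosphorylation were few. All 6 tested were called higher in Harr than in Chx (88.8% of all genes tested were), at a median of 3.51 beside the members' 2.28. The CDS measured 507 nucleotides in Atp5d, 771 in Atp5f1 and 174 in Ndufb1-ps, and the part of CDS length was not tested. Of the 4 most read, Ndufaf3, an assembly factor of complex I, had its leader in a single exon, and the other 3 held most of their 5′ UTR reads in the exon of the start codon. Atp5d, a subunit of ATP synthase, held 510, 759 and 1013 5′ UTR reads beside 12324, 14454 and 543 CDS reads, and in its 2-exon leader the first 210 nucleotides held only 3, 2 and 4 of them. Atp5f1 held 352, 667 and 982, with 0, 0 and 1 in the first 174 nucleotides. In Ndufb1-ps the last 8 of 603 nucleotides held 432, 517 and 1184 reads, beside 51, 108 and 133 in the exon before, which were 10.6%, 17.3% and 10.1% of its 5′ UTR reads.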

How the data were processed

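For each of 3 libraries the authors deposited tables of the 5′ UTR, CDS and 3′ UTR with 1 line per exon segment of a transcript. Deposited counts are whole, unnormalized reads, the deposited coverage column divides them by segment length, and the deposited RPKM column divides them further by the library total. Per the file headers, Plastid assigned each read to its 5′ end with offset 0 and kept reads of 25 to 100 nucleotides from mm10 alignments without ribosomal reads and duplicates. Rsubread is named in the methods for Plastid counts and TopHat for uORF calls from such libraries, and which of both made the alignments behind these tables is not stated there. A read can count in segments of several transcripts.

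Only counts were used, and RPM and RPKM were recomputed from them and the header totals. Segments were summed per transcript and joined to GENCODE M21 (99.4% of 142446 identifiers matched without version), and the longest transcript per gene was kept, following the study's methods. Libraries were grouped by the treatment label. The free-text descriptions, which name other fractions and dep neuron, were not used. Relative density is reads per nucleotide of the 5′ UTR over that of the CDS. For classes by upstream ATG, 0.5 was added to each count. Shares carry Wilson intervals, medians distribution-free intervals and ratios counting intervals, all at 95%. Amplified reads need not be independent molecules. Scripts were tested on simulated data and ran in Python 3.11.15 with pandas 2.3.3, numpy 2.4.6, scipy 1.17.1 and matplotlib 3.10.9.

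The length rule for members uses annotation only, but the choice to study them, the gene lists and the tests were made with earlier results of these data known. Named genes are the 12 members with the most 5′ UTR reads, the 5 longest, the 5 highest and lowest in WT density and in each pair of libraries (at least 100 reads in each region, over the pair for pairs and over all libraries otherwise), the members of the gene lists and, for families given by symbol, the 4 with the most reads. Some genes under this rule are not reported here. Which exons and windows of them were described was chosen after their values were seen, as were the analyses of upstream ATGs and families. Alternatives varied the pseudocount, read minimum, transcript, length, overlap, shared words (25 nucleotides also found in other genes), leading genes and library scaling.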

Additional observations from a re-analysis of the deposited data

How the results depend on the processing

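No paired analysis was possible because each treatment had 1 library, and no replicate could be left out. Of the alternatives computed for the summary values, 64 stayed within the counting or median interval (counts within 1.5 times) and 44 did not. None changed direction except that the Chx against WT median reached 0. Values are given as WT, Chx and Harr. The density of long 5′ UTRs relative to the CDS was 0.356, 0.432 and 2.09 on the most-read transcript, 0.255, 0.28 and 1.3 at 1000 or more nucleotides, 0.349, 0.413 and 1.85 with CDS overlap allowed, 0.333, 0.408 and 1.97 without leaders with over 10% shared words, and 0.306, 0.377 and 1.83 without the 20 most-read members. For upstream exons these were 0.354, 0.437 and 2.04, then 0.28, 0.303 and 1.29, then 0.405, 0.471 and 1.82, then 0.36, 0.441 and 2.03, and 1.88 in Harr without the 20. The median log2 odds ratio of Harr against Chx was 2.15 with a pseudocount of 5, 1.81 without a read minimum and 2.20 at 1000 or more nucleotides (190 called higher). Harr against WT gave 2.43, 1.97 and 2.31 (185 called), and Chx against WT 0.00 without a minimum and 0.08 at 1000 or more (14 called). At 1000 or more nucleotides fewer genes were tested, and the share called stayed near that of all members for Harr against Chx (88.8% beside 90.0%) and Harr against WT (88.5% beside 91.9%) but went from 13.2% to 6.64% for Chx against WT. The cause of these shifts was not tested. The level of long 5′ UTRs was 8510, 10700 and 37900 RPM by library total and 7720, 9250 and 48400 with size factors of CDS counts, so that Harr over Chx went from 3.54 to 5.24. The ratio of leaders with 4 to 6 upstream ATGs over those with none was 1.92 in WT under 60% GC. Of the log2 odds ratios of named genes, all 399 stayed within their interval with a pseudocount of 5, and 379 did on the most-read transcript, with 20 moved and none reversed. Upstream ATG and family alternatives were chosen after seeing the data.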
